A study of Homo sapiens with 8 samples.

Results

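The genes described here encode nucleolar proteins that make ribosomes, 40 genes of 16951 that had a tested probe on the arrays. They were chosen by name, from proteins known to act in the synthesis, modification and cutting of ribosomal RNA and in the assembly of both ribosomal subunits. The rule itself uses no measured difference, but the names were chosen with earlier results of these data known. A probe was used when both arrays of 1 or more of the 4 groups read it well above background, and a gene with several probes was followed by the brightest of them. All 40 genes met this on all 8 arrays, so the filter removed no gene of the set. Each of 33 genes had 1 probe, and 7 had several.

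The study set simvastatin, which inhibits HMG-CoA reductase at the head of the mevalonate pathway, against L-778123, which inhibits both farnesyltransferase and geranylgeranyl transferase, the enzymes that attach prenyl lipids to proteins. The comparison asks which genes respond to simvastatin in another way than to a block of protein prenylation. Total RNA was measured on 8 one-color arrays, 2 for each of 4 groups, namely OVSAHO with simvastatin, OVSAHO with L-778123, KURAMOCHI with simvastatin and KURAMOCHI with L-778123. OVSAHO and KURAMOCHI are established cell lines of human serous ovarian cancer, and each stands for 1 tumor. Untreated or vehicle-treated cells were not analysed here, so it stays unknown for each gene which of the drugs it followed, and the doses and times of the array cultures are not given in the sources used here. Each line and each treatment had its own positions on 1 slide, so an effect of position cannot be told apart from that of the group. The labels do not say that the 2 arrays of a group came from separate cultures, and p-values then measure the spread between these arrays only. With 2 arrays in a group, their number limits the precision of every value.

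Ribosomes are built in the nucleolus. RNA polymerase I transcribes a long precursor of ribosomal RNA there, small nucleolar ribonucleoproteins (snoRNPs) guide its methylation and pseudouridylation, and large assemblies of processing factors fold and cut it while ribosomal proteins join. The output of this process is tied to growth, its genes are known as a group that is regulated together, and many are known targets of the transcription factor MYC, which binds the sequence CACGTG (the E-box) with its partner MAX.

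The E-box is shown first, since the promoters of the set hold it often. RefSeq promoter windows of build GRCh38.p14, 300 bases from 250 before to 50 after an annotated start, were at hand for 33 of the 40 genes, while NOP58, NOLC1, RRP12, BOP1, RRS1, RRP1B and DDX18 had no entry. CACGTG, which reads the same on both strands, was in a window of 14 of these 33 genes (42.4%), against 11.7% of the 13079 tested genes in the table and 8.77% of all 27305 genes in it. In 10 of the 14 it lay within the 50 bases after a start (30.3% of the 33 genes, against 1.36% of the tested genes in the table), and in the other 4 its first base lay before the start (12.1%, against 10.6%). The stretches of 30 bases around the motif are printed 5′ to 3′ on the strand of the gene, with the E-box in capitals, for the 8 genes that had the motif and were lower with simvastatin in OVSAHO, and below them for FBL, which did not pass, and NOP14 and PES1, which were higher.
GNL3 (chr3:52686026-52686055, plus strand): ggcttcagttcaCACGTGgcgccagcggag
WDR43 (chr2:28894658-28894687, plus strand): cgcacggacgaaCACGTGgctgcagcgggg
NOC3L (chr10:94362903-94362932, minus strand): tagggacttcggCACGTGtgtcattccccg
NOP2 (chr12:6568242-6568271, minus strand): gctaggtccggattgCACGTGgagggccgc
LTV1 (chr6:143843354-143843383, plus strand): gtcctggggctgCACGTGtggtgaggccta
BYSL (chr6:41921515-41921544, plus strand): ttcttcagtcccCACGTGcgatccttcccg
RRP9 (chr3:51941892-51941921, minus strand): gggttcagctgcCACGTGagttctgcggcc
UTP20 (chr12:101280083-101280112, plus strand): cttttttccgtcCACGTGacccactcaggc
FBL (chr19:39846356-39846385, minus strand): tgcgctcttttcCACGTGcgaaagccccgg
NOP14 (chr4:2963374-2963403, minus strand): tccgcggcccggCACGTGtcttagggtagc
PES1 (chr22:30591880-30591909, minus strand): tccttggcagggCACGTGcgggaggaagtg

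The bases beside the motif differed from gene to gene. In GNL3 the first base of the motif lay 6 bases after a start, in WDR43 3, in NOC3L 19 and in NOP2 35, while it lay 5 bases before the start in RRP9 and 10 before it in UTP20. The motif was in 8 of the 18 genes with a window that passed as lower in OVSAHO and in 6 of the other 15. The other 15 either passed as higher or did not pass, so these counts do not compare the directions of the contrast. Of 4 further motifs searched on both strands, GGGCGG was in 84.8% of the 33 genes (70.7% of the tested genes), CCGGAAG in 36.4% (19.2%), ATGGCGG in 15.2% (10.7%) and TATAAA in 6.06% (9.88%). These are matches of letters, with no test, and say nothing of what bound there.

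Each level given below is the log2 of the processed signal over the 75th percentile of its array, so that a difference of 1 is 2-fold, and levels are set side by side only for the same probe. A gene passed at an adjusted p under 0.05 in limma (Benjamini-Hochberg over all 33753 probes tested). The 75th percentile of the processed signal before scaling was lower with simvastatin in both lines. In OVSAHO it was 367 and 324, against 437 and 411 with L-778123. In KURAMOCHI it was 361 and 366 against 399 and 402. Each contrast is thus relative to this percentile. The share of probes well above background was 51.8% to 57.5%, and saturated spots were not seen. The 2 arrays of a group correlated at 0.995 to 0.996 and differed by a median of 0.096 to 0.11 on the log2 scale. All 10 markers of serous ovarian carcinoma looked at were well above background on all 4 arrays of each line, with a summed linear signal of 459 to 1071 times the 75th percentile. Of 6 fibroblast markers, none was well above background on all arrays of OVSAHO, and COL1A1 and COL3A1 were on those of KURAMOCHI (summed signal 2.42 to 3.26). The arrays measure the share of a transcript in the RNA, so that less of a transcript and more of the rest cannot be told apart.

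In OVSAHO the genes of nucleolar ribosome synthesis were mostly lower with simvastatin than with L-778123. The contrast was below 0 in 33 of the 40 genes, with a median of −0.25 on the log2 scale, against a median of 0.014 over all genes tested. Of the 40 genes, 22 passed as lower, 5 passed as higher and 13 did not pass, while 53.9% of all genes tested passed, 27.5% as lower and 26.4% as higher. Among the 3354 genes whose mean level lay between the quartiles of the set, 2.41 to 4.45, 35.5% passed as lower and 26.8% as higher. The differences were small. They ran from −0.82 (UTP15) to 0.73 (NOB1), none reached 2-fold, which 11.6% of all genes tested did, and the standard error of a gene's contrast was 0.051 to 0.103 with a median of 0.069.

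**Figure D1:**
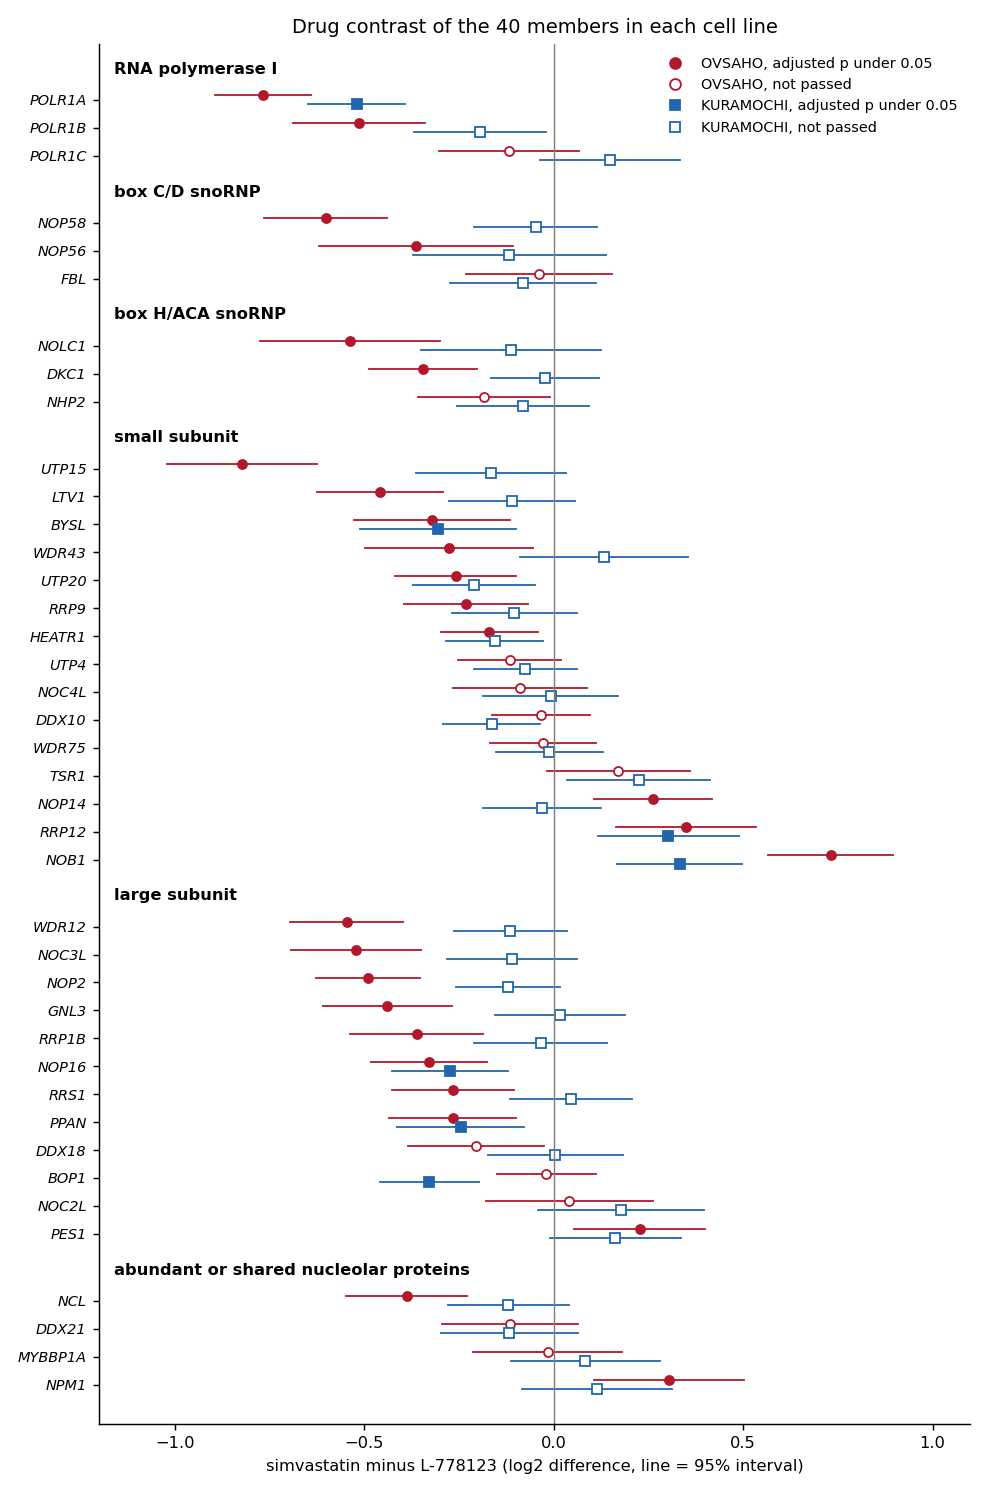
Simvastatin minus L-778123 on the log2 scale (horizontal axis) for each of the 40 genes, by role, with circles for OVSAHO, squares for KURAMOCHI, lines for 95% intervals and filled symbols for an adjusted p under 0.05. In OVSAHO 22 genes are filled to the left of 0 and 5 to the right, and in KURAMOCHI 5 and 2.

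RNA polymerase I had the lowest median contrast of any role in OVSAHO (−0.52 over 3 genes). Its largest subunit, POLR1A, read 0.71 and 0.71 on the OVSAHO arrays with simvastatin and 1.46 and 1.49 with L-778123. The same probe read 1.39 and 1.36 with simvastatin and 1.88 and 1.91 with L-778123 in KURAMOCHI. The drug groups were apart in both lines, and the 2 arrays of each group read almost the same. POLR1A was 1.70-fold lower with simvastatin in OVSAHO (log2 difference −0.77, SE 0.051, adjusted p = 0.000184) and 1.43-fold lower in KURAMOCHI (−0.52, SE 0.051, adjusted p = 0.00152). The second subunit of the catalytic core, POLR1B, read 2.10 and 2.12 with simvastatin and 2.66 and 2.59 with L-778123 in OVSAHO, and 2.42, 2.44, 2.70 and 2.55 in the same order in KURAMOCHI. It was lower in OVSAHO (−0.52, SE 0.070, adjusted p = 0.00231), and in KURAMOCHI its groups were apart with a difference of −0.20 that did not pass (adjusted p = 0.0867). POLR1C, a subunit shared with RNA polymerase III, did not pass in either line (−0.12 and 0.15).

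The proteins of the snoRNPs were lower in OVSAHO for 4 of 6 genes, and none of the 6 passed in KURAMOCHI. Of all genes tested, 27.5% passed as lower in OVSAHO, and 35.5% passed in KURAMOCHI. NOP58, a core protein of the box C/D snoRNPs that guide ribose methylation, read 5.70 and 5.81 with simvastatin and 6.39 and 6.32 with L-778123 in OVSAHO, and between 6.28 and 6.37 on all 4 KURAMOCHI arrays. The pair of OVSAHO arrays with simvastatin stood below the other 6 arrays. The difference was −0.60 in OVSAHO (1.52-fold, SE 0.066, adjusted p = 0.00101) and −0.05 in KURAMOCHI, where the 95% interval ran from −0.21 to 0.11. Its partner NOP56 was lower in OVSAHO as well (4.81 and 4.83 against 5.31 and 5.06, difference −0.36, adjusted p = 0.0315), and a second probe of NOP56 gave −0.48 (adjusted p = 0.00255). FBL, the methyltransferase of the same particle, read 8.01 and 8.10 with simvastatin and 8.03 and 8.16 with L-778123 in OVSAHO, and 8.08, 8.16, 8.25 and 8.15 in KURAMOCHI. Its groups overlapped in both lines, with differences of −0.04 (95% interval −0.23 to 0.15) and −0.08 (−0.27 to 0.11).

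On the box H/ACA side, which guides pseudouridylation, the synthase DKC1 read 4.74 and 4.73 with simvastatin and 5.03 and 5.13 with L-778123 in OVSAHO, and 4.02 to 4.06 on the 4 KURAMOCHI arrays. It was 1.27-fold lower with simvastatin in OVSAHO (−0.35, SE 0.058, adjusted p = 0.00482), and the difference in KURAMOCHI was −0.02 (95% interval −0.17 to 0.12). NOLC1, a chaperone of snoRNPs, read 4.21 and 4.26 against 4.79 and 4.76 in OVSAHO and was lower (−0.54, adjusted p = 0.0061), while its KURAMOCHI groups overlapped. NHP2, another core protein of these particles, did not pass in OVSAHO (−0.18, adjusted p = 0.0784), but did after quantile normalization (−0.31, adjusted p = 0.00546).

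**Figure D2:**
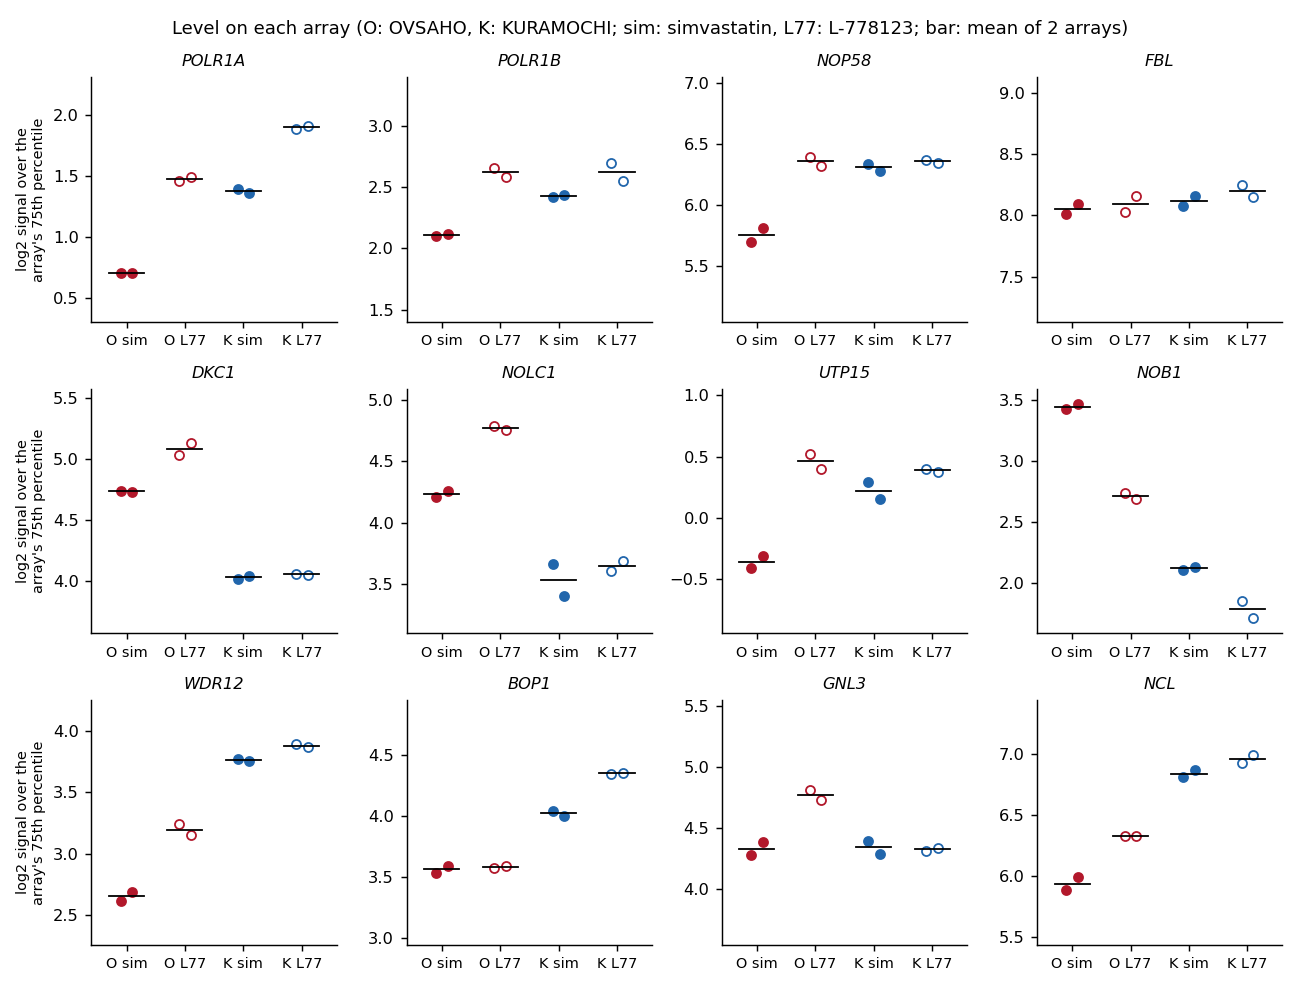
Level on each of the 8 arrays for 12 genes (vertical axis, log2 signal over the 75th percentile of the array, 2 log2 units in every panel), with filled points for simvastatin, open points for L-778123, red for OVSAHO, blue for KURAMOCHI and bars for the mean of 2 arrays. The drug groups of OVSAHO overlap for FBL and BOP1 and stand apart in the other panels. The 12 genes were picked for display, so the panels give no share for the set.

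Of 15 genes of the small subunit, 7 were lower in OVSAHO (46.7%), 3 were higher (20%) and 5 did not pass. Of all genes tested 27.5% were lower and 26.4% higher, and of the genes of similar mean level 35.5% and 26.8%. The lowest contrast of all 40 genes was that of UTP15, a protein of the processome that starts on the precursor while it is transcribed. UTP15 read −0.41 and −0.31 with simvastatin and 0.52 and 0.40 with L-778123 in OVSAHO, and 0.29 and 0.15 against 0.40 and 0.38 in KURAMOCHI. All 4 KURAMOCHI arrays lay between the OVSAHO groups or within the range of the L-778123 group. The difference was −0.82 in OVSAHO (1.77-fold, SE 0.080, adjusted p = 0.00067) and −0.17 in KURAMOCHI, which did not pass. The other 6 lower genes were LTV1, an export factor of the particle (−0.46), BYSL, a late assembly factor (−0.32), WDR43 (−0.28), UTP20 (−0.26), RRP9 of the U3 snoRNP (−0.23) and HEATR1 (−0.17). WDR43 and HEATR1 belong to the same early processome unit as UTP15, and 2 more proteins of that unit, UTP4 and WDR75, did not pass (−0.12 and −0.03). NOC4L and DDX10 did not pass either.

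Of the 5 genes that were higher in OVSAHO, 3 belong to the small subunit (NOB1, RRP12 and NOP14). NOB1, the nuclease that makes the last cut of the small ribosomal RNA, read 3.43 and 3.47 with simvastatin and 2.74 and 2.69 with L-778123 in OVSAHO. In KURAMOCHI it read 2.11 and 2.13 against 1.86 and 1.72. The simvastatin arrays were the higher ones in both lines, by 0.73 in OVSAHO (1.66-fold, SE 0.067, adjusted p = 0.000537) and 0.33 in KURAMOCHI (1.26-fold, adjusted p = 0.0152). RRP12, an export factor, read 3.06 and 3.08 against 2.68 and 2.76 in OVSAHO and 1.88 and 1.81 against 1.62 and 1.47 in KURAMOCHI. It was higher by 0.35 (adjusted p = 0.012) and 0.30 (adjusted p = 0.03), and it and NOB1 were the 2 genes of the set that passed as higher in both lines. NOP14 was higher in OVSAHO (0.26, adjusted p = 0.018) and not in KURAMOCHI (−0.03). A second probe of NOP14 gave 0.20 in OVSAHO and did not pass (adjusted p = 0.0831). TSR1, a late factor, had 2 probes that went against each other. The brighter one read 9.09 and 9.06 against 8.87 and 8.94 in OVSAHO and did not pass in either line (0.17 and 0.22), and the other passed as lower in both (−0.47 and −0.31). A second probe of DDX10 likewise passed as higher in OVSAHO (0.86), where the brighter one gave −0.03, so the direction of neither TSR1 nor DDX10 is settled.

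Of 12 genes of the large subunit, 8 were lower in OVSAHO (66.7%, against 27.5% of all genes tested) and 1 was higher (8.33%, against 26.4%). WDR12, which forms the PeBoW complex with PES1 and BOP1, read 2.61 and 2.69 with simvastatin and 3.24 and 3.15 with L-778123 in OVSAHO, and between 3.75 and 3.89 in KURAMOCHI. It was 1.46-fold lower with simvastatin in OVSAHO (−0.55, SE 0.060, adjusted p = 0.00106), and the difference in KURAMOCHI was −0.12. Its partners gave other values. PES1 was higher in OVSAHO (0.23, adjusted p = 0.0413), a call that several alternatives lost. BOP1 read 3.53 and 3.59 against 3.58 and 3.59, groups that overlapped. In KURAMOCHI the order changed, and BOP1 was the partner that was lower, at 4.04 and 4.0 with simvastatin and 4.34 and 4.35 with L-778123 (−0.33, 1.26-fold, adjusted p = 0.0074).

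The other 7 lower genes of the large subunit were NOC3L (−0.52), the RNA methyltransferase NOP2 (−0.49), GNL3 (−0.44), RRP1B (−0.36), NOP16 (−0.33), RRS1, which helps to bring in the small RNA of the large subunit (−0.27), and PPAN (−0.27). GNL3, or nucleostemin, a GTPase known from proliferating cells, read 4.28 and 4.39 with simvastatin and 4.81 and 4.73 with L-778123 in OVSAHO, and 4.29 to 4.39 on the 4 KURAMOCHI arrays. It was 1.36-fold lower in OVSAHO (adjusted p = 0.00387), and in KURAMOCHI, where the drug groups overlapped, the difference was 0.02 (95% interval −0.15 to 0.19). DDX18 and NOC2L did not pass in either line.

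The abundant nucleolar proteins NCL and NPM1 had contrasts of opposite sign in OVSAHO. NCL (nucleolin), which binds the ribosomal RNA precursor, read 5.89 and 5.99 with simvastatin and 6.33 and 6.33 with L-778123 in OVSAHO, and 6.81 and 6.87 against 6.92 and 6.99 in KURAMOCHI. It was lower in OVSAHO (−0.39, 1.31-fold, adjusted p = 0.0047), and −0.12 in KURAMOCHI did not pass. NPM1 (nucleophosmin), a chaperone of the same compartment, read 9.34 and 9.49 against 9.06 and 9.16 in OVSAHO and passed as higher (0.31, adjusted p = 0.024), but not after quantile normalization (0.07, adjusted p = 0.43). A second of its 3 probes passed in the same direction (0.24) and the third did not (0.18), and processed copies of NPM1 in the genome share its sequence. MYBBP1A and the helicase DDX21 did not pass in either line.

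The counts in OVSAHO depended on the arrays and the test. Without the simvastatin replicate 2 array of OVSAHO 15 genes passed instead of 27, and the lower and higher genes were then 14 and 1. Under every alternative but the stricter thresholds, 13 to 24 genes were lower and 1 to 6 were higher. At an adjusted p under 0.05, NOB1 stayed higher in every fit. DKC1, GNL3, LTV1, NCL, NOC3L, NOP16, NOP2, NOP58, POLR1A, POLR1B, UTP15 and WDR12 stayed lower in every fit. The other calls in OVSAHO, such as those of PES1, HEATR1, WDR43 and RRP9, were lost in 1 or more fits.

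In KURAMOCHI few of these genes passed. Of 40, 5 were lower with simvastatin, 2 were higher and 33 did not pass, while 35.5% of all genes tested passed, 18.4% as lower and 17.0% as higher. Among the genes of similar mean level 20.2% passed as lower and 18.2% as higher. None of the 40 reached 2-fold, which 5.39% of all genes did. The median was −0.08, against 0.011 over all genes, and 28 genes were below 0. The 5 lower genes were POLR1A and BOP1, given above, and BYSL, NOP16 and PPAN. BYSL read 3.34 and 3.36 with simvastatin and 3.77 and 3.55 with L-778123 (−0.31, adjusted p = 0.0392), and in OVSAHO 3.42 and 3.43 against 3.74 and 3.75. NOP16 read 4.27 and 4.28 against 4.55 and 4.54 (−0.27, adjusted p = 0.0223), and in OVSAHO 5.45 and 5.57 against 5.83 and 5.85. PPAN read −0.46 and −0.38 against −0.21 and −0.13 (−0.25, adjusted p = 0.041), and in OVSAHO 1.78 and 1.82 against 2.02 and 2.11. In all 3 genes the drug groups were apart in both lines. The 3 were named because they passed, so this follows from the choice. The count of 7 fell to 2 without either simvastatin array of KURAMOCHI, to 3 without its L-778123 replicate 2 array and to 4 without either simvastatin array of OVSAHO, and POLR1A and BOP1 passed in every such fit.

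Both lines shared 4 lower genes (POLR1A, BYSL, NOP16 and PPAN) and 2 higher genes (NOB1 and RRP12). Of these shared genes, POLR1A alone passed at an adjusted p under 0.05 in every fit in both lines. A further 18 genes were lower in OVSAHO and did not pass in KURAMOCHI, 3 were higher in OVSAHO alone, BOP1 was lower in KURAMOCHI alone, and 12 passed in neither. The sign was negative in both lines for 27 genes. How many of all genes tested went the same way in both lines is not given here, so these counts do not set the genes apart. Since passing in 1 line and not in the other does not show a difference, the difference of the contrasts was tested itself.

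The contrast of OVSAHO minus that of KURAMOCHI was below 0 in 31 of 40 genes, with a median of −0.12, against −0.0082 over all genes tested. It passed for 9 genes, 7 lower and 2 higher, while 27.4% of all genes tested passed, 14.0% as lower and 13.5% as higher, so the share of the set was near that of all genes. None of the 40 differences reached 2-fold, which 7.59% of all genes did. UTP15 had the lowest difference, −0.66 (95% interval −0.94 to −0.38, adjusted p = 0.0127), followed by NOP58 with −0.56 (adjusted p = 0.0116) and GNL3 with −0.46 (adjusted p = 0.0249). WDR12 (−0.43), NOC3L (−0.41), NOP2 (−0.37) and DKC1 (−0.32) were the other 4. For NOP58, GNL3 and DKC1 the KURAMOCHI contrast was within 0.05 of 0. The 2 genes with a higher difference were NOB1 (0.40, adjusted p = 0.0331), which was higher with simvastatin in both lines and more so in OVSAHO, and BOP1 (0.31, adjusted p = 0.0356), which was lower in KURAMOCHI alone. NOP14, with the next highest value, did not pass (0.29, adjusted p = 0.0665). For BYSL, NOP16 and PPAN, which were lower in both lines, the difference was −0.02 (95% interval −0.31 to 0.28), −0.06 (−0.27 to 0.16) and −0.02 (−0.26 to 0.22).

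**Figure D3:**
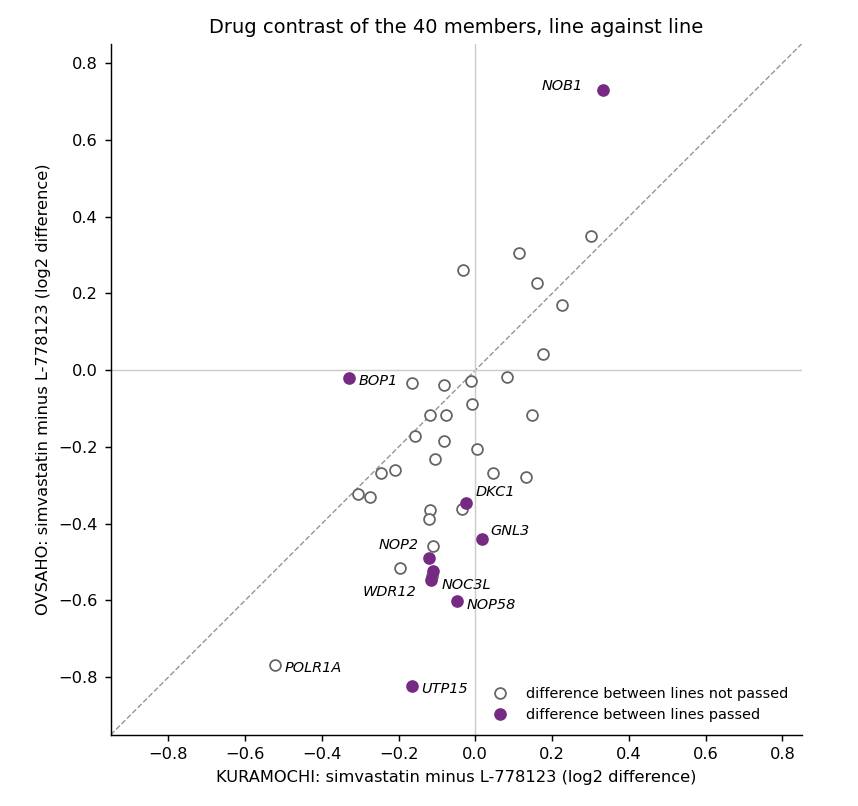
Simvastatin minus L-778123 on the log2 scale in KURAMOCHI (horizontal axis) and OVSAHO (vertical axis) for the 40 genes, with the dashed line where both are equal and filled points for the 9 genes whose difference between lines passed. Of the points, 31 lie below the dashed line, and UTP15 (−0.17, −0.82) lies farthest below it.

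These calls were the least firm. With any 1 array left out, 2 to 5 genes passed, and UTP15 was the single gene that passed in every fit. A second probe of NOP56 gave a difference of −0.63 (adjusted p = 0.00852), where the brighter one gave −0.25 and did not pass.

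The lines themselves differed in the level of most of these genes. Averaged over both drugs, 18 genes were higher in OVSAHO, 12 were lower and 10 did not pass, while 42.4% of all genes tested passed as higher and 40.5% as lower. The share of the set that passed was thus below the 82.9% of all genes, and 6 genes passed with at least 2-fold, where 34.8% of all genes did. PPAN, a factor of early large subunit assembly, was 4.68-fold higher in OVSAHO (2.23, SE 0.048), with 1.78 to 2.11 on the OVSAHO arrays and −0.46 to −0.13 on those of KURAMOCHI. DDX21, a helicase, was 3.00-fold higher (1.59), with 4.83 to 5.02 against 3.19 to 3.39. NOP16 was 2.41-fold higher (1.27), RRP12 2.30-fold (1.20) and NOB1 2.18-fold (1.12).

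RRS1 was the one gene that was at least 2-fold lower in OVSAHO (−1.28, 2.42-fold), at 2.41 to 2.76 against 3.80 to 3.87. WDR12 (−0.90) and NCL (−0.76) followed. For these 8 genes the 4 arrays of a line lay apart from those of the other line. The 8 were named for their large differences, so this follows from the choice. By role, all 3 genes of the box H/ACA snoRNPs were higher in OVSAHO (DKC1 0.86, NHP2 0.45 and NOLC1 0.91), while POLR1A and POLR1B were lower there (−0.54 and −0.16) and POLR1C was higher (0.37). With L-778123 alone, DKC1 read 5.03 and 5.13 in OVSAHO and 4.06 and 4.05 in KURAMOCHI.

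**Figure D4:**
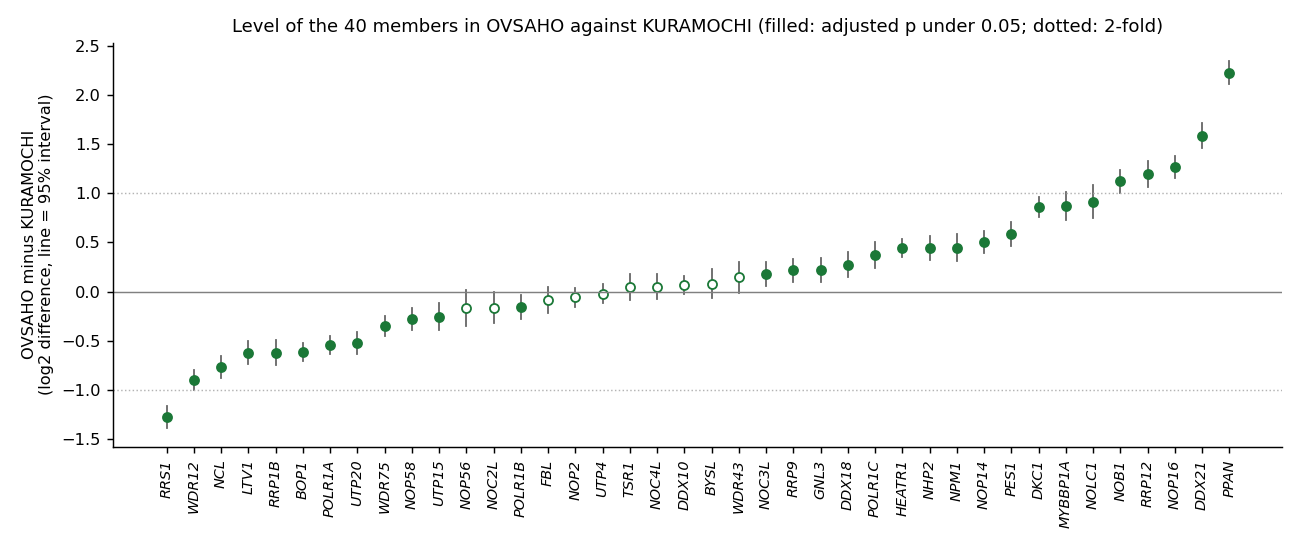
OVSAHO minus KURAMOCHI, averaged over both drugs, on the log2 scale (vertical axis) for the 40 genes in order of the difference, with 95% intervals, filled points for an adjusted p under 0.05 and dotted lines at 2-fold. The values run from −1.28 (RRS1) to 2.23 (PPAN), with 6 genes past the dotted lines.

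Genes of the same process outside the set were counted from lists written by hand with earlier results known, so they are no independent evidence. Of 132 further genes of RNA polymerase I, the snoRNPs, subunit assembly and ribosomal RNA trimming, 56 were lower with simvastatin in OVSAHO and 16 were higher, with a median of −0.17, and in KURAMOCHI 20 were lower and 10 higher, with a median of −0.05. These were 42.4% and 12.1% of the list in OVSAHO, against 27.5% and 26.4% of all genes tested, and 15.2% and 7.58% in KURAMOCHI, below the 18.4% and 17.0% of all genes. In total 54.5% of the list passed in OVSAHO, near the 53.9% of all genes. With any 1 array left out, 34 to 50 were lower in OVSAHO and 5 to 18 in KURAMOCHI, the fewest in OVSAHO without its simvastatin replicate 1 array (34) and in KURAMOCHI without 1 of its own arrays (5 to 8). Among the factors of RNA polymerase I, TCOF1, which serves its transcription, was −0.52 in OVSAHO, and TAF1A, of its promoter selectivity factor, −0.43, while TAF1D (0.60) and POLR1E (0.25) were higher. In the snoRNP group RUVBL1 (−0.63) and ZNHIT6 (−0.57) were lowest, and ZNHIT3 (0.44) was the single gene that passed as higher. For the small subunit, PNO1, the partner of NOB1, was −0.79 in OVSAHO, opposite in sign to NOB1, and DCAF13 −0.62, while UTP25 (0.73) and RIOK3 (0.57) were higher. For the large subunit, MRTO4 (−0.67) and URB2 (−0.63) were lowest and SDAD1 (0.59) and DDX51 (0.58) highest. The lowest value in these lists was that of MPHOSPH6, a partner of the RNA exosome, with −1.13 in OVSAHO (adjusted p = 0.000191) and −0.64 in KURAMOCHI (adjusted p = 0.00277). The exosome nuclease DIS3 followed (−0.80), and EXOSC2 was higher (0.29). Of 9 subunits of RNA polymerase III, which makes the remaining ribosomal RNA, 5 were lower in OVSAHO and none was higher. POLR3K (−0.89) and POLR3G (−0.82) were lowest, and 2 subunits were lower in KURAMOCHI. The lower ones were 55.6% of the 9 in OVSAHO, against 27.5% of all genes, and 22.2% in KURAMOCHI, near the 18.4% of all genes.

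The proteins of the ribosome itself went the other way or not at all, depending on the normalization. Of 76 genes for cytosolic ribosomal proteins, 43 were higher with simvastatin in OVSAHO and 1, RPL27A, was lower (−1.03), with a median of 0.24, but after quantile normalization 1 was higher and 2 were lower, with a median of 0.012. The 43 became 6 without the simvastatin replicate 2 array of OVSAHO, 12 without its L-778123 replicate 1 array and 24 without its L-778123 replicate 2 array. The 43 were 56.6% of the list, against 26.4% of all genes tested that passed as higher in OVSAHO. Among these 43 were RPS27 (0.63), RPL26 (0.48) and RPS12 (0.40). In KURAMOCHI 8 were higher and 1 lower, with a median of 0.13 (13, 1 and 0.06 after quantile normalization), and 0 to 2 were higher with any 1 array of that line left out. The 8 were 10.5% of the list, below the 17.0% of all genes tested that passed as higher in KURAMOCHI. The median level of the 76 genes was 9.03 above the 75th percentile on the log2 scale, and copies of these genes in the genome share their sequences. The set of 40 kept its median under quantile normalization, at −0.26 in OVSAHO, with 20 genes lower and 4 higher.

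**Figure D5:**
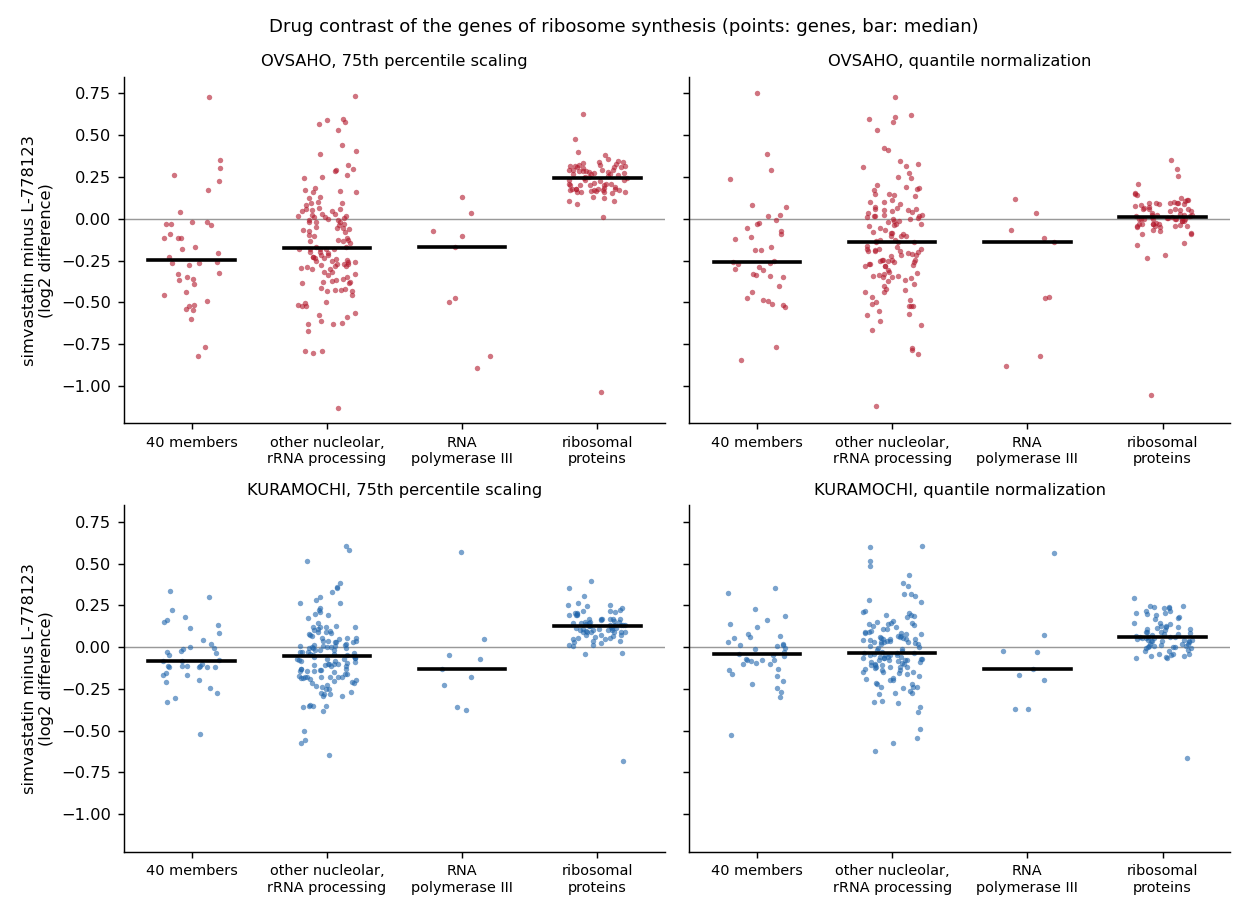
Simvastatin minus L-778123 on the log2 scale (vertical axis) for the genes of 4 lists (points, with bars for the median), in OVSAHO (top) and KURAMOCHI (bottom), after scaling to the 75th percentile (left) and after quantile normalization (right). The bar of the 40 genes stays at −0.25 and −0.26 in OVSAHO, and that of the ribosomal proteins moves from 0.24 to 0.012.

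MYC itself was higher with simvastatin in both lines. It read 5.08 and 5.14 with simvastatin and 4.80 and 4.79 with L-778123 in OVSAHO, and 5.40 and 5.37 against 4.94 and 4.84 in KURAMOCHI. The groups were apart in both lines, with differences of 0.32 (adjusted p = 0.00813) and 0.49 (adjusted p = 0.00321). In OVSAHO 22 genes of the set were lower, and of the 18 of these with a promoter window 8 held the E-box. Whether MYC had a part in these contrasts was not tested.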

How the data were processed

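OVSAHO and KURAMOCHI cells with simvastatin or L-778123 were measured on 8 one-color Agilent arrays. The authors extracted each array with Feature Extraction 11.5.1.1 and deposited the processed signal of each spot, a background-subtracted intensity not yet normalized between arrays, and a table of processed intensity of the same arrays, which served as an alternative. Control and outlier spots were left out, 58162 of 58201 probes were used, and each array's signals were divided by their 75th percentile and taken as log2 values. The 33753 probes that exceeded background clearly on each array of 1 or more groups entered lmFit and eBayes of limma 3.58.1 (R 4.3.3), with 1 mean per group and Benjamini-Hochberg adjustment, and the fit was tested on simulated data. RefSeq accessions named 24764 of 50069 identifiers. The members and lists were chosen with earlier results of these data known. All members could be named. Values per array were set for the 5 lowest and 3 highest contrasts in each line, the 3 lowest and 3 highest differences between lines in contrast and level, and 10 core genes, and from each other list the 2 lowest and 2 highest genes that passed were named, except 1 that is not reported here. Alternatives were other filters, normexp (offset 50), other normalizations, the mean over probes, 1 line alone, a replicate block, the methods' analysis of variance with Tukey's test, other thresholds and each array left out. Protein sequences were not used here. Promoters came from RefSeq, build GRCh38.p14, and the array's names from the same assembly. Python 3.11.15 with matplotlib 3.10.9 drew the figures.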

Additional observations from a re-analysis of the deposited data

Results flagged for a closer look

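The 9 genes whose drug contrast differed between the lines by the interaction term in limma are listed here, as OVSAHO minus KURAMOCHI on the log2 scale. The contrast was lower in OVSAHO for UTP15 (−0.66), NOP58 (−0.56), GNL3 (−0.46), WDR12 (−0.43), NOC3L (−0.41), NOP2 (−0.37) and DKC1 (−0.32). It was higher in OVSAHO for NOB1 (0.40) and BOP1 (0.31). All 9 passed with other normalizations (quantile, normexp, the authors' table) and in the methods' analysis of variance. Quantile normalization and the authors' table gave almost the same median over the 40 genes in OVSAHO (−0.257 and −0.256), so they are not separate checks. With a replicate block 5 of the 9 passed, and without a filter on dim probes 1 did, UTP15. Each line had its own array positions, and their part in these differences cannot be told apart from that of the line.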

How the results depend on the processing

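Every alternative kept the sign of the median over the 40 genes, at −0.26 to −0.21 in OVSAHO, −0.10 to −0.04 in KURAMOCHI and −0.16 to −0.05 for the difference between lines. With no filter on dim probes 16 genes passed in OVSAHO instead of 27, 2 in KURAMOCHI instead of 7 and 1 for the difference instead of 9. The methods' analysis of variance gave 14 in OVSAHO and 4 in KURAMOCHI, normexp gave 11 in KURAMOCHI and 16 for the difference, probes well above background on all 8 arrays gave 17 for the difference, and a fit of KURAMOCHI alone gave 3 there. A 2-fold threshold left 0 genes in each drug contrast, 0 for the difference and 6 of 30 for the level. An adjusted p under 0.01 left 15, 2 and 0. Leaving out 1 array gave 15 to 24 genes in OVSAHO, 2 to 6 in KURAMOCHI, 2 to 5 for the difference and 29 to 31 for the level, with a group of 1 array assumed to vary like the others. Of the genes called at an adjusted p under 0.05, 13 of 27 passed at that level in every fit in OVSAHO, 2 of 7 in KURAMOCHI, 1 of 9 for the difference and 27 of 30 for the level. DDX10 turned to 0.42 in OVSAHO as the mean over its probes, and the level of TSR1 turned to −0.29 with quantile normalization, −0.29 with the authors' table and −0.41 as the mean over its probes. The cause of these changes was not tested.

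Replicate numbers were shared by the groups, but the deviations of arrays with the same number correlated at 0.000848 to 0.0555, so they were not taken as pairs. A fit with the replicate number as a block gave 24 genes in OVSAHO, 5 in KURAMOCHI, 5 for the difference and 30 for the level.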

Other observations

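Genes of the MYC network beside MYC were also measured. Of 9 genes in the list, 7 passed as higher with simvastatin in OVSAHO and 1 as lower, and 5 and 1 in KURAMOCHI. The higher ones were 77.8% of the list in OVSAHO and 55.6% in KURAMOCHI, against 26.4% and 17.0% of all genes tested. The partners that compete with MYC for MAX were among the 9. MXI1 was higher by 1.30 in OVSAHO and 0.93 in KURAMOCHI, MNT by 0.55 and 0.49, and MXD1 by 1.06 in OVSAHO with 0.26 in KURAMOCHI that did not pass. MXD3 was lower in both lines (−0.33 and −0.44), and that call was lost when either simvastatin array or the L-778123 replicate 1 array of OVSAHO, or either simvastatin array of KURAMOCHI, was left out of the fit for that line.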
